A study of Caenorhabditis elegans with 12 samples.

Results

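The genes described here are the short-chain dehydrogenases (dhs) and the aldehyde dehydrogenases (alh) of *C. elegans*. They were taken by gene symbol, as every row of the deposited table whose symbol starts with dhs- or alh-. The rule left out dhs-16, dhs-28 and alh-8. This gave 40 of the 46726 genes in the table, 28 dhs and 12 alh genes, of which 39 had a mean of at least 5 normalized counts over the 6 libraries and were tested.

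The libraries came from whole late L1 larvae of the wild-type N2 strain, grown synchronously in liquid at 20 °C. At 6 h after hatching one culture was divided, and 3 parts received a cocktail, dissolved in ethanol, of equal parts of the pheromones ascr#8, ascr#3 and ascr#2, while the other 3 received the same volume of ethanol alone. RNA was taken 3 h later. The sample labels give a total ascaroside concentration of 5 µM, and the study's methods give a lower one. The treated cultures are called ascaroside libraries 1 to 3 and the ethanol cultures control libraries 4 to 6, as numbered in the table. All 6 share one starting population, so the spread between them is that of parallel cultures. The libraries of daf-22(ok693) mutants, which were treated in the same way, were not analysed here.

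Both families are oxidoreductases that pass electrons to or from NAD(H) or NADP(H). Short-chain dehydrogenases interconvert alcohols and carbonyls on small molecules such as steroids, retinoids, sugars and fatty acyl chains. Aldehyde dehydrogenases oxidise reactive aldehydes to carboxylic acids, both in detoxification and as fixed steps in the breakdown of amino acids, lipids and one-carbon units. In *C. elegans*, members left out by the rule act in the making of ascarosides (dhs-28) and of dafachronic acid (dhs-16), the steroid hormone that holds larvae on the reproductive course.

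Values are normalized counts, in which the authors scaled the reads of each gene by the size factor of its library. The libraries held 11133417 to 19116807 reads on genes. Among tested members the number of reads in a library ran from 10 (dhs-26) to 18110 (alh-1). Fold changes are on the scale of log2(normalized count + 1), ascarosides over control, and come from limma fitted to all 14965 genes with a mean of at least 5. This scale understates the change of genes with few counts. Adjusted p-values are Benjamini-Hochberg values over all of these genes.

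Ascarosides were followed by a rise of 3 members, the aldehyde dehydrogenases alh-5 and alh-1 and the short-chain dehydrogenase dhs-2, each by about 2-fold. No member fell at an adjusted p under 0.05 in limma, edgeR or DESeq2. At an unadjusted p under 0.05 in limma, 5 members were higher, the 3 risen ones among them, and 5 were lower. These were 12.8% each, beside 8.05% and 7.13% of all tested genes. The 3 risen members were 7.69% of the 39 tested, where 3.52% of all tested genes passed in either direction, 2.06% higher and 1.46% lower. By family, 2 of 11 tested alh genes and 1 of 28 dhs genes passed. The median log2 fold change of the members was 0.014, beside 0.0019 for all tested genes. In 34 of the 39 members the fitted change was under 0.5 on the log2 scale in either direction, beside 12566 of 14965 tested genes.

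alh-5 (WBGene00000111, chromosome V) had the largest fold change among the members. It had 1387, 1774 and 1575 normalized counts in ascaroside libraries 1, 2 and 3, against 722, 662 and 691 in control libraries 4, 5 and 6. The groups were far apart, and the lowest ascaroside library stood 1.92 times above the highest control library. The means were 1579 ± 193 with ascarosides and 692 ± 30.0 in controls (SD, n = 3 each). The fitted log2 fold change was 1.18 ± 0.115 (standard error), with an adjusted p of 2.7e-05 in limma, which is 2.27-fold with a 95% interval of 1.92 to 2.69. By p-value it was in place 6 of the 14965 genes.

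alh-1 (WBGene00000107, chromosome III), the ortholog of the human mitochondrial aldehyde dehydrogenase ALDH2, which oxidises acetaldehyde among other substrates, was the most abundant member and also rose. It had 15262, 15761 and 13015 normalized counts in the ascaroside libraries, against 8012, 7749 and 7833 in the control libraries. The control values lay close together, and every ascaroside library was at least 1.62 times above the highest of them. The means were 14679 ± 1463 with ascarosides and 7864 ± 134 in controls (SD, n = 3 each). The log2 fold change was 0.90 ± 0.117 (standard error) and its adjusted p in limma 2.6e-04, or 1.86-fold with a 95% interval of 1.57 to 2.21. In normalized counts alh-1 made up 41.9% to 46.4% of the sum over the 12 alh members with ascarosides and 30.7% to 32.8% in controls. alh-8, left out by the rule, is not in this sum, so these are not shares of the whole family. Its means were 14635 with ascarosides and 13051 in controls, above alh-1 in controls.

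dhs-2 (WBGene00000966, chromosome I) was the only short-chain dehydrogenase that passed. It had 506, 589 and 518 normalized counts in the ascaroside libraries, against 320, 286 and 279 in the control libraries. The lowest ascaroside library was 1.58 times above the highest control library. The means were 538 ± 45.0 with ascarosides and 295 ± 21.9 in controls (SD, n = 3 each), and limma gave a log2 fold change of 0.86 ± 0.128 (standard error) at an adjusted p of 6.8e-04. This is 1.82-fold, with a 95% interval of 1.51 to 2.19. Of the 1204 bases of dhs-2 exons, 79 are shared with an antisense RNA, anr-38. The library kit named in the methods is not described there as strand-specific and strand use in counting is not stated, so reads from that stretch cannot be told apart by strand.

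**Figure D1:**
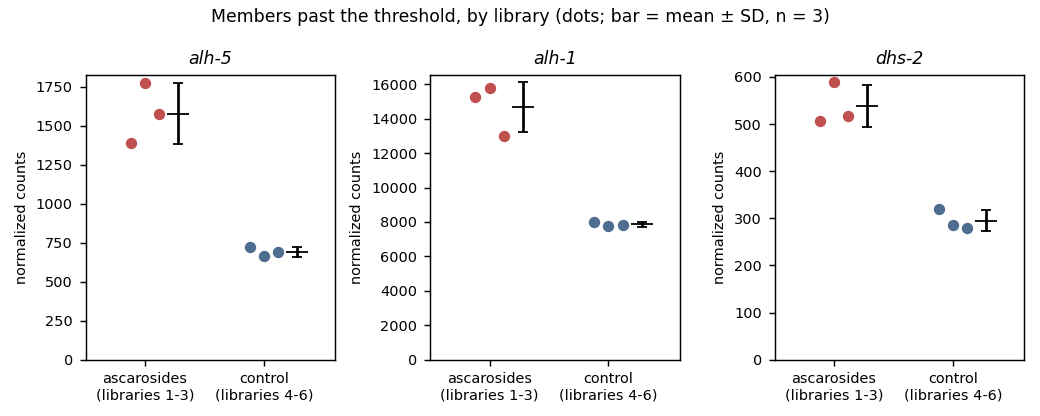
Normalized counts (linear axes from 0) of alh-5, alh-1 and dhs-2 in each library, ascarosides at left and control at right in each panel, with the mean and SD of 3 libraries beside the dots. In all 3 genes each ascaroside library lies above each control library, for alh-5 by at least 1.92 times.

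These 3 calls did not rest on one library. With each of the 6 libraries left out in turn, the adjusted p (limma) stayed at or below 0.0016 for alh-5, 0.0069 for alh-1 and 0.017 for dhs-2, and the log2 fold changes lay between 1.095 and 1.27, between 0.84 and 0.98, and between 0.80 and 0.92. For one gene alone, an exact two-sided permutation of 3 against 3 cultures cannot go below p = 0.1. In limma without the trend of variance on expression the adjusted p was 0.083 for alh-5 and 0.087 for alh-1 and dhs-2, a setting in which 1 gene of the whole table passed.

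The larvae were whole animals, so a change in the number of cells of a type and a change in RNA per cell cannot be told apart. Of 7 intestinal markers, ges-1 (a gut esterase) and cpr-1 (a gut protease) also rose. Their log2 fold changes were 0.78 and 0.94 (adjusted p = 4.2e-04 and 6.8e-05 from limma). elt-2, the gut's defining transcription factor, had a log2 fold change of -0.17 (adjusted p = 0.71). The 7 markers summed to 93350 to 104100 normalized counts with ascarosides and 79380 to 100100 in controls. Most of each sum was 1 gene, asp-1, with 63174 to 70739 with ascarosides and 53686 to 66091 in controls. The part of gut RNA in the rise of alh-1, alh-5 and dhs-2 was not tested. Of the tested markers of pharynx (4), neurons (6) and hypodermis (5), 0 passed in limma, edgeR or DESeq2. At an unadjusted p under 0.05 in limma, 1 pharynx and 1 neuron marker were higher and 3 hypodermis markers lower. The shares of all tested genes were 8.05% higher and 7.13% lower. Of 5 markers of body wall muscle 0 passed in limma (2 at an unadjusted p under 0.05) and edgeR and 1 in DESeq2. The 10 genes of adults and embryos summed to 125 to 151 normalized counts with ascarosides and 122 to 163 in controls, with vit-5 and col-19 at 0 in every ascaroside library.

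The other aldehyde dehydrogenases with a known place in metabolism differed by less than could be called. alh-3, the ortholog of 10-formyltetrahydrofolate dehydrogenase, which releases one-carbon units from the folate pool, had 2835, 3143 and 2419 normalized counts with ascarosides, against 2886, 1796 and 2312 in controls. The groups overlapped widely (log2 fold change 0.28, adjusted p = 0.39). Control library 4 was the highest control for this gene, and without it the log2 fold change was 0.45 (adjusted p = 0.014). alh-4, the fatty aldehyde dehydrogenase, had 3444, 3809 and 3291 normalized counts with ascarosides, against 3293, 3255 and 3021 in controls. Its log2 fold change was 0.14, with a 95% interval of -0.083 to 0.36 (adjusted p = 0.59).

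alh-6 and alh-13 stand at opposite ends of proline metabolism. alh-6 oxidises pyrroline-5-carboxylate to glutamate in proline breakdown, and alh-13 makes it from glutamate for proline synthesis. alh-6 had 2061, 2261 and 2367 normalized counts with ascarosides, against 2379, 1847 and 1975 in controls (log2 fold change 0.12, adjusted p = 0.70). alh-13 had 1591, 2037 and 1733 normalized counts with ascarosides, against 2029, 2081 and 1847 in controls (log2 fold change -0.16, adjusted p = 0.57). The groups overlapped in both genes, and the 95% intervals were -0.13 to 0.36 for alh-6 and -0.40 to 0.082 for alh-13.

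alh-7, the succinate-semialdehyde dehydrogenase that ends the breakdown of GABA, had 1094, 1088 and 1163 normalized counts with ascarosides, against 1190, 1296 and 1025 in controls. alh-9, the ortholog of ALDH7A1 in lysine breakdown, had 2790, 3301 and 2776 normalized counts with ascarosides, against 3091, 2817 and 2675 in controls. Both had overlapping groups, with log2 fold changes of -0.064 (95% interval -0.30 to 0.18) and 0.045 (-0.19 to 0.28) and adjusted p-values of 0.85 and 0.90. The remaining tested alh genes, alh-10, alh-11 and alh-12, had log2 fold changes of 0.080, 0.014 and -0.019. alh-2, the member under the minimum, had at most 3 reads in any library and is too low for a fold change.

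Among the short-chain dehydrogenases the changes went both ways, with 14 of 28 fitted values above 0 and 14 below it. Besides dhs-2, dhs-19 and dhs-25 were higher at an unadjusted p under 0.05 but not after adjustment. dhs-19 had 1174, 1147 and 1194 normalized counts with ascarosides, against 827, 1038 and 933 in controls. Every ascaroside library was above every control library (log2 fold change 0.33, adjusted p = 0.13, and 0.040 without control library 5). dhs-25 had 1004, 940 and 894 normalized counts with ascarosides, against 713, 883 and 717 in controls. Its groups did not overlap either, with a log2 fold change of 0.30 (adjusted p = 0.22).

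On the lower side, the 5 short-chain dehydrogenases with an unadjusted p under 0.05 were dhs-23, dhs-8, dhs-15, dhs-5 and dhs-9, and none held after adjustment. dhs-23 had the lowest fitted value of all tested members and few normalized counts, 32.9, 25.7 and 39.1 with ascarosides, against 42.0, 61.8 and 66.1 in controls. The groups lay apart by a narrow margin (log2 fold change -0.77 ± 0.287 (standard error), adjusted p = 0.18). dhs-15 had 126, 117 and 116 normalized counts with ascarosides, against 163, 149 and 166 in controls. All 3 ascaroside libraries were lower, with a log2 fold change of -0.41 (adjusted p = 0.23). dhs-14, close to dhs-15 on chromosome V, had a log2 fold change of 0.015, and of -0.21 to 0.20 with one library left out.

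dhs-9 had 1495, 1716 and 1605 normalized counts with ascarosides, against 1748, 2357 and 1732 in controls, where control library 5 stood well above the others. Its groups did not overlap (log2 fold change -0.26, adjusted p = 0.33). dhs-5 had 410, 442 and 510 normalized counts with ascarosides, against 503, 624 and 535 in controls, with a log2 fold change of -0.29 (adjusted p = 0.30). dhs-8 had 69.1, 53.2 and 82.1 normalized counts with ascarosides, against 70.0, 104 and 137 in controls. In dhs-5 and dhs-8 one ascaroside value reached into the control range, and dhs-8 had a log2 fold change of -0.57 (adjusted p = 0.29, and 0.035 without control library 4, with a log2 fold change of -0.82).

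dhs-3, an intestinal protein of the lipid droplet surface and widely used as its marker, was among the most abundant members. It had 1543, 1721 and 1627 normalized counts with ascarosides, against 1336, 1740 and 1550 in controls. The groups overlapped, and the log2 fold change was 0.087 with a 95% interval of -0.16 to 0.33 (adjusted p = 0.78). dhs-21, the ortholog of dicarbonyl and L-xylulose reductase, was named after its values were seen. It had 766 ± 7.38 normalized counts with ascarosides and 708 ± 82.5 in controls (SD, n = 3 each), with a log2 fold change of 0.12 (adjusted p = 0.69).

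**Figure D2:**
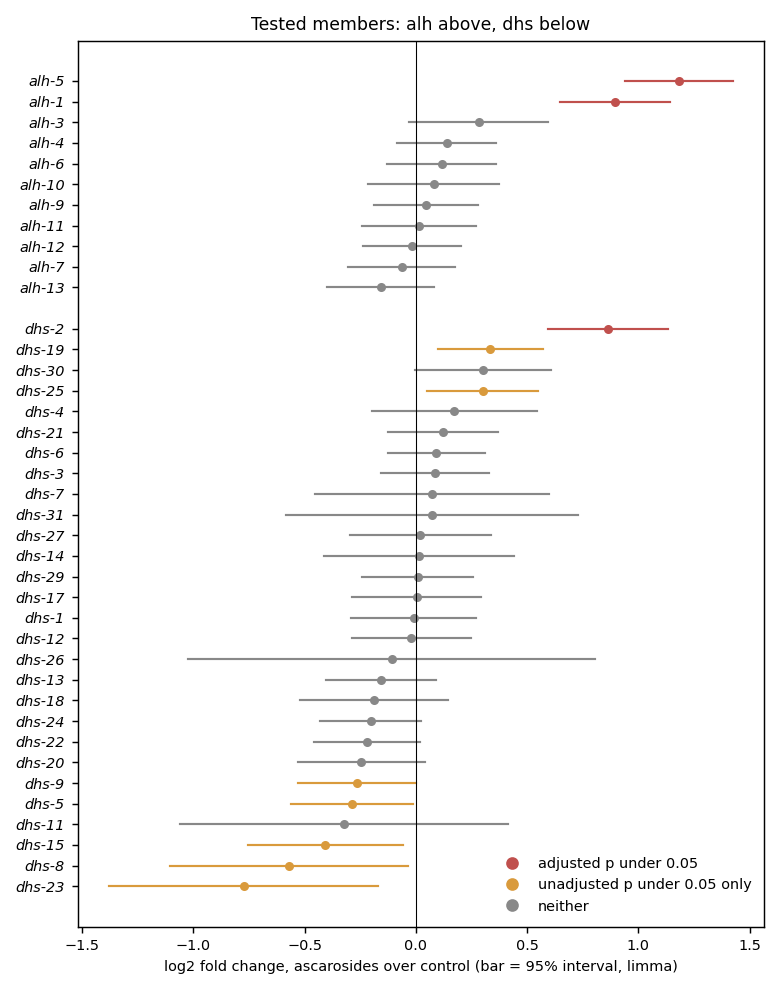
Log2 fold change of each of the 39 tested members, ascarosides over control, with its 95% interval from limma, for alh genes above and dhs genes below. alh-5, alh-1 and dhs-2 stand apart at 1.18, 0.90 and 0.86, and the intervals of the sparse genes dhs-26, dhs-11 and dhs-31 are wide.

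At an unadjusted p under 0.05, 5 members (12.8%) were higher and 5 (12.8%) lower, beside 8.05% and 7.13% of all tested genes. The ascaroside and control values did not overlap in 6 members that were higher (15.4%) and 5 that were lower (12.8%), beside 9.78% and 9.53% of all tested genes. Beyond the members already described, these were dhs-6 on the higher side and dhs-22 and dhs-24 on the lower side. All of the lower members by either measure were dhs genes. Of the 36 members that did not pass, 32 had a 95% interval that lay within a 2-fold change in either direction, and 20 one within 0.5 on the log2 scale.

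Precision was lowest for the rarest members. dhs-26 had 13.5, 15.2 and 13.04 normalized counts with ascarosides, against 10.9, 21.3 and 14.6 in controls, with an interval of -1.02 to 0.81 on the log2 scale. dhs-11 had 21.1, 20.9 and 18.3 normalized counts with ascarosides, against 26.5, 20.3 and 30.2 in controls (log2 fold change -0.32, adjusted p = 0.73). dhs-31 had 54.8, 34.2 and 36.5 normalized counts with ascarosides, against 27.2, 53.3 and 40.3 in controls (log2 fold change 0.073, adjusted p = 0.95). In these 3 genes the groups overlapped. They were the tested members nearest to the minimum mean of 5.

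Levels between genes were compared as normalized counts per kb of exon. alh-1 was first in both groups, with 7767 ± 774 per kb with ascarosides and 4161 ± 71.1 per kb in controls (SD, n = 3 each). It was followed in controls by dhs-9, dhs-3, alh-9 and alh-4, with control means of 1883, 1496, 1455 and 1384 per kb, whose library ranges overlapped from one to the next. With ascarosides the same 4 genes had 1554, 1582, 1503 and 1525 per kb. The median control level was 793 per kb for the alh genes and 291 per kb for the dhs genes. In the order of control levels, 30 of the 39 neighbouring pairs had overlapping ranges, so most places in this order are not fixed by these libraries. alh-5 was in place 6 with ascarosides (1141 ± 140 per kb) and in place 20 in controls (500 ± 21.7 per kb). dhs-2 was in place 21 with ascarosides (447 ± 37.4 per kb) and in place 27 in controls (245 ± 18.2 per kb).

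**Figure D3:**
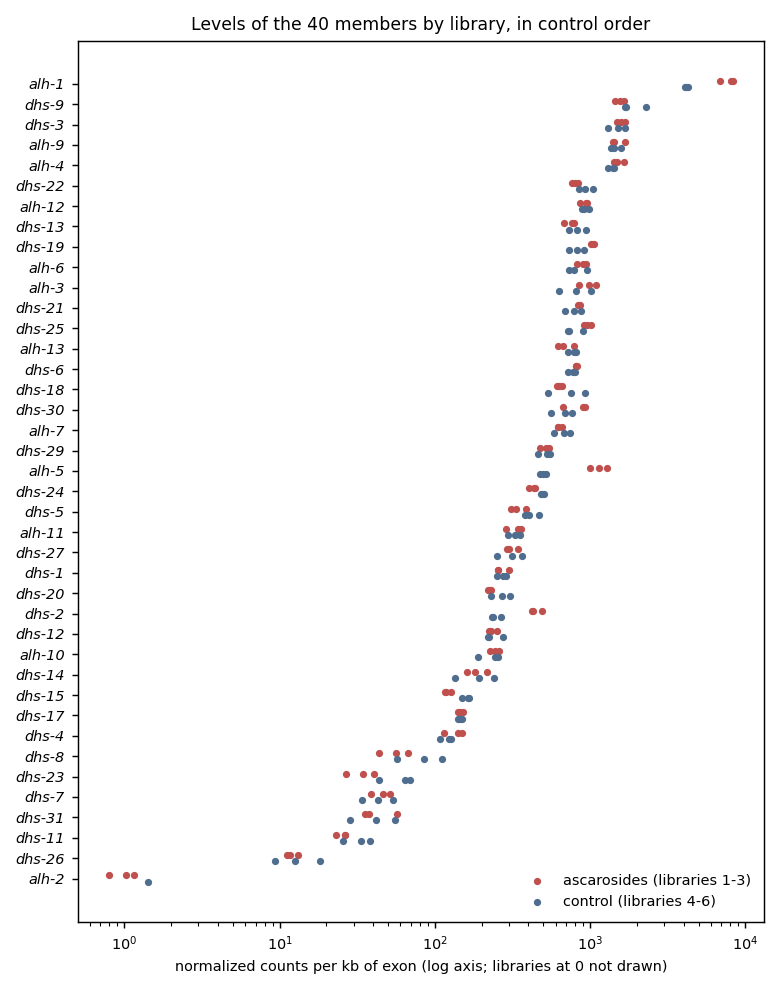
Normalized counts per kb of exon on a log axis for the 40 members in each library, ascarosides drawn above control in each row, ordered by the control mean. alh-1 is at the top at 7767 per kb with ascarosides and 4161 per kb in controls, and the ascaroside dots of alh-5 and dhs-2 lie to the right of the control dots.

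Sums were taken over members only, so they do not hold the abundant alh-8, nor dhs-16 and dhs-28. The 12 alh members had 32898, 35863 and 31075 normalized counts with ascarosides, against 26108, 24310 and 23899 in controls. Without alh-1 and alh-5 the sums were 16249, 18328 and 16485 with ascarosides, against 17374, 15899 and 15375 in controls, and the groups overlapped. The 28 dhs genes summed to 15500, 15875 and 15338 with ascarosides, against 14555, 17176 and 15126 in controls, so these sums overlapped as well. Most of the difference in the alh sum lay in alh-1.

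The members varied more among the control cultures than among the treated ones, as did the tested genes as a whole. The median SD of a member on the log2 scale was 0.108 among the ascaroside libraries and 0.172 among the control libraries, beside 0.152 and 0.235 for all tested genes. The SD was larger among the controls in 26 of the 39 members and in 10314 of the 14965 tested genes. Control library 5 was the highest control for 23 of 39 members (36.1% of all tested genes), among them 18 of 28 dhs genes. Control library 4 was the highest for 6 of the 11 tested alh genes (34.2% of all tested genes). Without control library 4, 6 members passed, the further ones being alh-3, dhs-8 and dhs-18 (log2 fold change -0.40, adjusted p = 0.034), beside 9.60% of all tested genes in the same fit. For dhs-18 the log2 fold change was -0.0042 without control library 5.

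**Figure D4:**
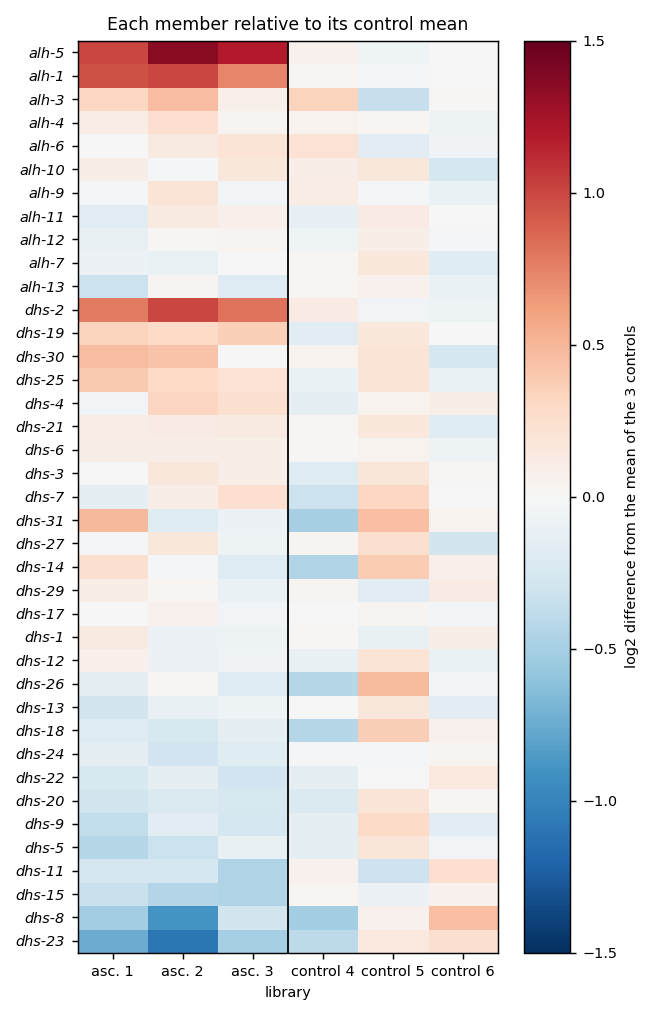
Log2 difference of each tested member from the mean of the 3 control libraries, with ascaroside libraries 1 to 3 at left and control libraries 4 to 6 at right. alh-5, alh-1 and dhs-2 are high in all 3 ascaroside libraries, and many dhs genes are higher in control library 5 than in control library 4.

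The 3 family members left out by the rule had no call. dhs-28 had a log2 fold change of 0.30 (adjusted p = 0.23), dhs-16 one of -0.35 (adjusted p = 0.44) and alh-8, the methylmalonate-semialdehyde dehydrogenase, one of 0.17 (adjusted p = 0.57).

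Enzymes that work beside these families were read from lists by role. Of the 3 alcohol dehydrogenases that matched a row and were tested, 2 rose. adh-1, which oxidises alcohols to the aldehydes that aldehyde dehydrogenases take up, had 25927, 26862 and 20880 normalized counts with ascarosides, against 15774, 11010 and 13196 in controls. Both groups had received ethanol, and adh-1 had a log2 fold change of 0.89 ± 0.149 (standard error) at an adjusted p of 0.0019 in limma, beside 0.90 for alh-1. sodh-2 had 95.2, 99.8 and 102 normalized counts with ascarosides, against 19.5, 28.8 and 53.8 in controls (log2 fold change 1.63, adjusted p = 0.0044).

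Among the 10 tested short-chain dehydrogenases on a second list, which also held dhs-16 and dhs-28, 1 rose and 1 fell. let-767, a steroid and acyl-CoA reductase, had 6159, 6372 and 5590 normalized counts with ascarosides, against 3524, 4126 and 3930 in controls (log2 fold change 0.65, adjusted p = 0.0020). stdh-2 had 15.2, 15.2 and 18.3 normalized counts with ascarosides, against 42.8, 38.4 and 95.2 in controls (log2 fold change -1.68, adjusted p = 0.012). In both genes the groups did not overlap.

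Further lists held genes that share substrates or products with single alh or dhs genes. Of 4 tested partners in proline and ornithine metabolism 0 passed in limma, edgeR or DESeq2, with 1 at an unadjusted p under 0.05 in limma, and their median log2 fold change was -0.16. Of 7 genes of GABA and propionate breakdown, acdh-1, the first enzyme of the propionate shunt, fell (log2 fold change -2.76, adjusted p = 6.7e-04) in limma, and the other 6 did not pass in limma or edgeR, while 2 of the 7 passed in DESeq2. Of 9 folate and glycine cleavage genes, dao-3 and gldc-1 rose (log2 fold changes 0.42 and 0.49, adjusted p = 0.043 and 0.023). In this list 3 fitted values were above 0 and 6 below it, with a median of -0.18. At an unadjusted p under 0.05 in limma, 3 of the 9 were higher and 2 lower. Of 8 genes of lipid droplets and ether lipids, acl-7, an acyltransferase of peroxisomal ether lipid synthesis, rose at the edge of the threshold (log2 fold change 0.48, adjusted p = 0.0499 in limma). Of the 8 genes, 0 passed in edgeR and 1 in DESeq2.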

How the data were processed

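RNA-seq of 6 N2 libraries was used. The authors aligned reads with tophat2 to WBcel215 by the methods (WBcel235 in the labels), counted them with HTSeq and deposited a signal per gene, the count over a DESeq size factor; versions are not given in the sources used here. The 5 rows that name no gene (33.1% to 41.8% of column totals, of which reads with no unique alignment made up 31.6% to 40.4% of the totals) were left out. No other columns were present. Symbols, chromosomes and exon lengths came from a name table and the WBcel235 annotation, with no coordinates given. Every value was a whole multiple of one step per library (tolerance 0.1), so reads were recovered.

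Groups were compared with limma 3.58.1 (R 4.3.3) on log2(normalized count + 1), eBayes with trend, two-sided, over 14965 genes. Alternatives were pseudocounts of 0.5 and 5, upper-quartile or quantile scaling, no filter or a higher minimum (50), robust eBayes, eBayes without trend, edgeR 4.0.16, DESeq2 1.42.0 and leaving out each library. Scripts were tested on simulated data. Members and lists were chosen with earlier results of these data known. Members named are those at an unadjusted p under 0.05, the 5 highest per kb, those nearest the minimum and those with a known role; others were named after their values were seen. List genes are named where they passed, and of the listed names 3 matched no row.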

Additional observations from a re-analysis of the deposited data

How the results depend on the processing

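No paired analysis was possible because the table numbers its libraries 1 to 6 and no label ties these to replicate pairs, so the replicate block could not be fitted. The methods describe a single culture divided into treated and control parts and name no pairs among them. The replicate numbers of the labels are therefore not known to mark pairs. alh-1, alh-5 and dhs-2 passed in 15 of the 16 alternatives. In limma without trend 0 members passed (0 dhs and 0 alh), against 3 each in edgeR and DESeq2, where 3.6% and 4.79% of all tested genes passed. Without trend 6 members were at an unadjusted p under 0.05. The share of all tested genes at this cutoff was not counted for that fit, so the 6 are no result about the members. With one replicate left out, 3 to 6 members passed, 1 to 3 of them dhs genes (3 without control library 4, 2 without control library 5). In the same fits 1.45% to 9.60% of all tested genes passed, the most without control library 4. The members' median ran from -0.0485 without control library 4 to 0.0744 without control library 5. The sign turned in 15 of the 39 members when one library was left out, with the cause not tested. In each of these 15 the log2 fold change from all libraries was smaller in size than its standard error. The largest in size was -0.11 ± 0.433 (standard error) for dhs-26. How often the sign turned among all tested genes was not counted. alh-9 was -0.0208 under quantile normalization. Among the members named by the rule, log2 fold changes with one library left out ran from -0.156 to 0.0131 for alh-7, -0.0371 to 0.102 for alh-9, -0.0118 to 0.179 for dhs-3, -0.325 to 0.13 for dhs-26 and -0.176 to 0.296 for dhs-31. Depth limits the members with few reads, such as dhs-26 and dhs-11.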

Other observations

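The neighbours of the 3 risen members were looked at after the rises were seen, as the 5 nearest tested protein-coding genes on each side. Their log2 fold changes ran from -0.61 to 0.61 around alh-5, from -0.73 to 0.50 around alh-1 and from -1.25 to 0.97 around dhs-2, and 1 of them passed an adjusted p under 0.05 in limma, F59A7.2 beside alh-5. Their median log2 fold changes were 0.14 around alh-5, 0.021 around alh-1 and -0.13 around dhs-2. The members lie on all 6 chromosomes, with 14 of the 40 on chromosome V. Exon bases are shared with another annotated gene in 16 members, over 10% of the exon length in dhs-12 and dhs-20, so their counts are uncertain. alh-1 and alh-5 share none.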
